A study of Mus musculus with 6 samples.

Results

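A set of 8 microRNAs (miRNAs) known from epithelial cells was read in the RNA of extracellular vesicles, the membrane-bound particles that cells release, from mouse peripheral blood mononuclear cells (PBMCs). They are the 5 members of the miR-200 family (miR-200a-3p, miR-200b-3p, miR-200c-3p, miR-141-3p and miR-429-3p) together with miR-203-3p, miR-205-5p and miR-375-3p, chosen by name, and all 8 were found among the 620 rows of the deposited table. Small RNA libraries were sequenced from wild-type (WT) vesicles in 2 groups of 3. The control group (CTRL 1 to 3) is labelled untreated, and the other (IS 1 to 3) is labelled IS-stimulated, an abbreviation that the labels leave unexplained. No age, sex, dose or duration was used here, and the labels do not say which libraries came from which animal or culture. The p-values therefore rest on the scatter among these libraries alone, and that scatter may be technical.

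miRNAs are short RNAs that bind messenger RNAs, mainly through their seed (bases 2 to 8), and lower the output of those messages. The miR-200 family is known for holding cells in an epithelial state by repressing Zeb1 and Zeb2, transcription factors that switch off E-cadherin. miR-203 is known from skin, where it limits the self-renewal of keratinocytes by repressing p63, miR-205 from skin and other stratified or glandular epithelia, and miR-375 from pancreatic islets and other endocrine cells. Blood mononuclear cells, lymphocytes and monocytes in the main, are not epithelial.

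The mature sequences show which family members should be read as relatives and which could be confused in counting. RefSeq (GRCm38.p6) gave a mature sequence for 7 of the 8, all but miR-375-3p, and they are written 5′ to 3′ with the seed in capitals.
miR-200b-3p: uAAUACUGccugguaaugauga
miR-200c-3p: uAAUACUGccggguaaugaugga
miR-429-3p: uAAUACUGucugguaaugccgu
miR-200a-3p: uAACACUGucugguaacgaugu
miR-141-3p: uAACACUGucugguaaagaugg
miR-203-3p: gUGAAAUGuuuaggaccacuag
miR-205-5p: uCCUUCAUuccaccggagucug
The 5 family members carry 2 seeds, AAUACUG in miR-200b-3p, miR-200c-3p and miR-429-3p, and AACACUG in miR-200a-3p and miR-141-3p. From miR-200a-3p to miR-200b-3p the seeds differ by C4U, counted from 1 at the 5′ end. The nearest pairs cross the genomic clusters. miR-200a-3p and miR-141-3p share 20 of 22 bases (C17A and U22G), and miR-200b-3p and miR-200c-3p share 20 of 22 (U11G and A22G). Whether reads were shared between such close relatives was not tested, since no source used here gives the authors' counting rules.

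The family comes from 2 places in the genome (RefSeq and GENCODE M21, GRCm38, which need not be the build of the authors). Mir429, Mir200a and Mir200b lie within 1846 bases on chromosome 4 (156053905 to 156055750, minus strand), inside an intron of Ttll10. Mir429 also overlaps an exon of the noncoding transcript Gm13648, and the other two lie in an intron of it. Mir141 and Mir200c lie within 477 bases on chromosome 6 (124717914 to 124718390, minus strand), in an intron of the noncoding RNA gene Gm15884. Mir141 also overlaps an exon of the gene Gm29008 on the same strand. Mir205 lies on chromosome 1 (193507463 to 193507530, minus strand) in an exon of the long noncoding RNA gene 4631405K08Rik. Mir203 overlaps no other GENCODE gene on chromosome 12 (112130880 to 112130955, plus strand) and lies 3321 bases from Aspg. RefSeq places miR-203b-5p of the hairpin Gm51289 within it on the minus strand (112130927 to 112130946). Mir375 is intergenic on chromosome 1 (74900658 to 74900721, minus strand), 1350 bases from Cfap65.

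The epithelial miRNAs were a minor part of the vesicle RNA. Together the 8 held 930 of 1533292 miRNA counts, a total that includes repeated rows, and 781 of the 930 belonged to the miR-200 family. Library totals ran from 125731 (IS 3) to 435468 (CTRL 3) counts, so 3 counts, taken as the floor of detection, were worth 6.89 to 23.9 CPM (counts per 1000000 miRNA counts of a library). The 7 leukocyte miRNAs, miR-142a-5p leading, summed to 9982 to 26259 CPM in control and 11031 to 32866 CPM in IS. The 4 red cell miRNAs summed to 93435 to 186873 and 120628 to 223132 CPM, and miR-122-5p, known from liver, was read at 23470 to 112546 and 31766 to 107023 CPM. In every library the leukocyte, red cell and liver miRNAs each outweighed the summed epithelial 8 (252 to 1177 CPM), and which cells released the latter was not tested. Each library was nearest, by the chi-square of its counts per degree of freedom, to a library of the other group: CTRL 1 to IS 1 (29.8), CTRL 2 to IS 3 (49.2) and CTRL 3 to IS 2 (81.0), against 110.1 to 325 within groups. The labels give no batch, no test used these pairs, and their part in the results was not tested. In such bulk samples, fewer vesicles of a cell type and less RNA per vesicle cannot be told apart.

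Most members were detected in most libraries, and 4 of the 8 had 3 or more counts in every library. A count of 1 or more was found for 7, 8 and 8 of the 8 in CTRL 1 to 3 and for 6, 8 and 7 in IS 1 to 3. At 3 or more counts the numbers were 6, 8 and 7, and 6, 8 and 5. Of all 620 rows, a count of 1 or more was found for 293, 301 and 513 in control and for 276, 441 and 297 in IS. With every library thinned to 125731 counts, the mean number detected was 6.39, 7.99 and 6.92 in control and 6.0, 7.62 and 7.0 in IS. In IS 1 miR-141-3p and miR-375-3p were the 2 members without a count. In CTRL 1 it was miR-375-3p, and in IS 3 miR-141-3p.

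miR-200a-3p was the most abundant of the 8, 108th of the 620 rows by mean CPM. Its level was 74.0, 264 and 351 CPM in CTRL 1 to 3 and 235, 113 and 644 CPM in IS 1 to 3 (20, 62, 153, 35, 36 and 81 counts). IS 3 was the highest and CTRL 1 the lowest, 8.71-fold apart, and the groups overlapped. The gap between libraries was wider than counting error, with 95% Wilson intervals of 518 to 801 CPM in IS 3, 299.9 to 412 CPM in CTRL 3 and 47.9 to 114 CPM in CTRL 1. PCR reads without molecular identifiers are not independent molecules, so these intervals and the floors cover counting error only. In the main test the log2 fold change, IS minus control, was 0.51 (SE 0.73, 95% interval -1.12 to 2.13, adjusted p = 0.996 by edgeR's quasi-likelihood F-test, adjusted after Benjamini and Hochberg over 206 miRNAs).

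miR-200b-3p, made from the same cluster, was 131st and had 51.8, 93.5 and 169.9 CPM in control and 80.4, 123 and 286 CPM in IS (14, 22, 74, 12, 39 and 36 counts). IS 3 was again the highest and CTRL 1 the lowest, and the groups overlapped. The log2 fold change was 0.60 (SE 0.76, 95% interval -1.08 to 2.29). The direction of the miR-200a-3p fold change depended on single libraries, among them IS 3, which is the shallowest. That of miR-200b-3p turned only without IS 3, and only with the scaling refitted. Without IS 3 the log2 fold change of miR-200a-3p was -0.58, and that of miR-200b-3p was -0.14. With the scaling of all 6 libraries kept they were -0.12 and 0.18. Leaving out CTRL 1 instead gave -0.20 and 0.07, or 0.14 and 0.36 with the scaling kept.

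miR-429-3p, the remaining member of that cluster, had a lower mean than its neighbours and another spread over the libraries. It had 3.70, 46.8 and 16.1 CPM in control and 80.4, 22.1 and 15.9 CPM in IS (1, 11, 7, 12, 7 and 2 counts). IS 1, which was only middling for miR-200a-3p, was the highest here, at the same 12 counts as miR-200b-3p in that library. The mean was 22.2 ± 22.2 CPM in control and 39.5 ± 35.6 CPM in IS (SD, n = 3 per group). The two-sided exact permutation p was 0.6, where 0.1 is the smallest that 3 against 3 allows.

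Of the chromosome 6 cluster, miR-200c-3p was 155th by mean CPM and the steadier member. Its level was 51.8, 115 and 62.0 CPM in control and 40.2, 129 and 119 CPM in IS (14, 27, 27, 6, 41 and 15 counts). CTRL 2, IS 2 and IS 3 were high and the other libraries low, so each group had values on both sides. The log2 fold change was 0.35 (SE 0.85, 95% interval -1.52 to 2.22, adjusted p = 0.996, edgeR). It was -0.047 when CTRL 1 was left out and -0.051 when IS 2 was, or 0.24 and -0.025 on the kept scaling.

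miR-141-3p, transcribed beside miR-200c, had the lowest mean CPM of the 8. It had 25.9, 38.3 and 13.8 CPM in control and 0, 15.8 and 0 CPM in IS (7, 9, 6, 0, 5 and 0 counts). The 2 zeros fell in the 2 shallowest libraries, where the floor of 3 counts stood at 20.1 CPM (IS 1) and 23.9 CPM (IS 3). The lowest control value (13.8 CPM) was under both floors and under the IS 2 value, so the groups overlapped. The means were 26.0 ± 12.2 and 5.25 ± 9.10 CPM (exact two-sided permutation p = 0.2, n = 3 per group).

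**Figure D1:**
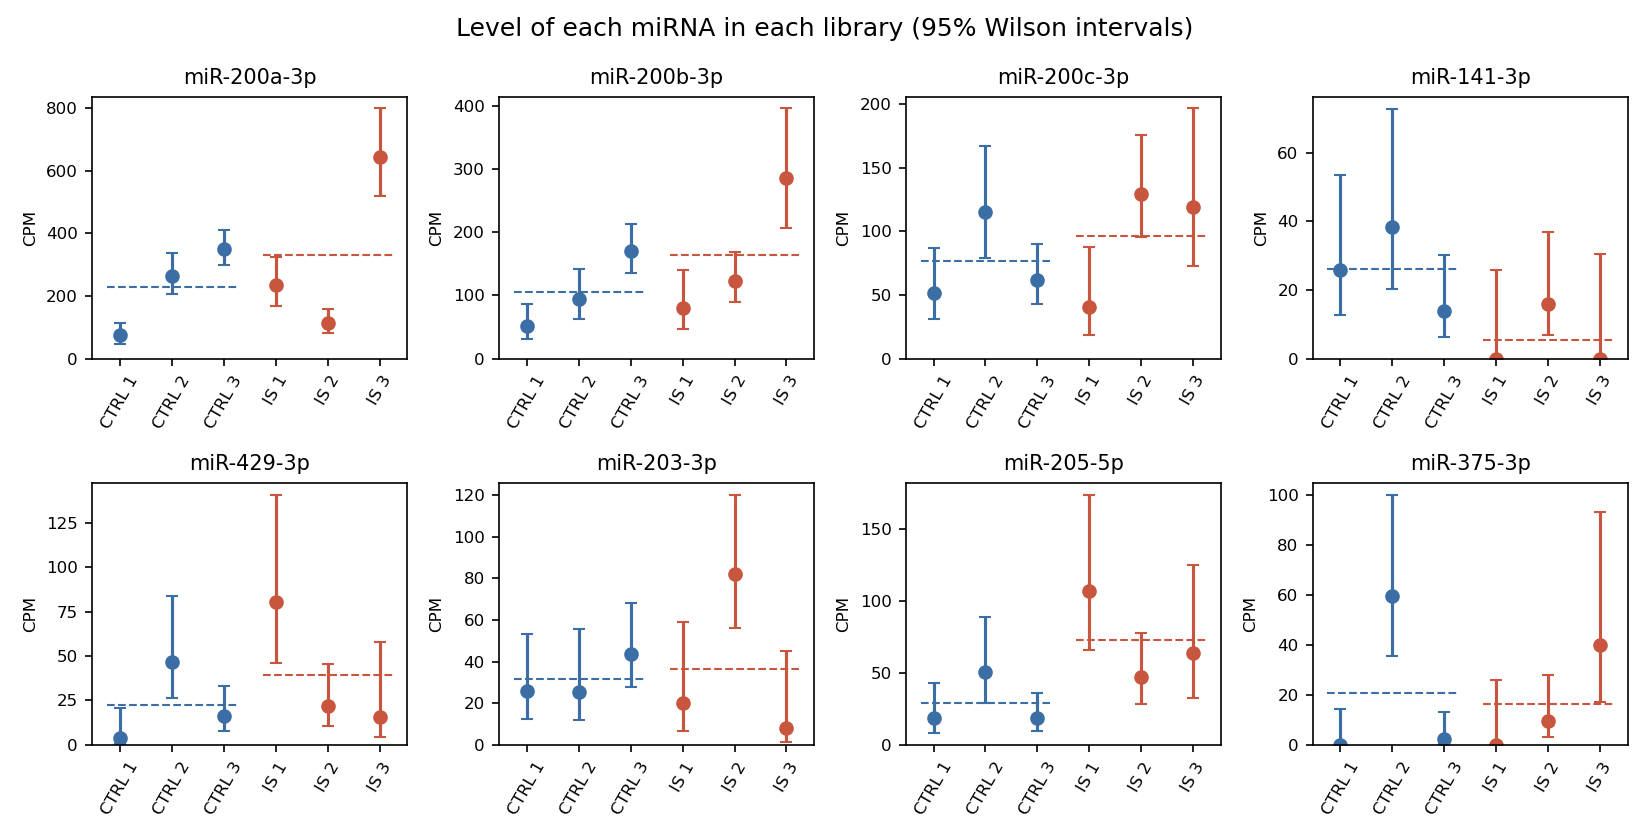
CPM of each of the 8 miRNAs (vertical axes, separate scales starting at 0) in the 3 control (blue) and 3 IS (red) libraries. Points are single libraries with 95% Wilson intervals for counting error, and dashed lines are group means. miR-200a-3p and miR-200b-3p are highest in IS 3 and lowest in CTRL 1, and on this unscaled CPM the groups separate in no panel.

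miR-203-3p, the keratinocyte miRNA, had 25.9, 25.5 and 43.6 CPM in control and 20.1, 81.9 and 7.95 CPM in IS (7, 6, 19, 3, 26 and 1 counts). IS 2 was the highest and IS 3 the lowest, and the groups overlapped. The means, 31.7 ± 10.4 and 36.7 ± 39.7 CPM, gave an exact two-sided permutation p of 1 (n = 3 per group). A row named miR-203b-5p held 7, 6, 13, 3, 14 and 1 counts, the same as miR-203-3p in 4 of the 6 libraries. RefSeq places miR-203b-5p on the opposite strand of the same bases.
miR-203-3p: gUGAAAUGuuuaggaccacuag
miR-203b-5p: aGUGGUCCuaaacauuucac
The reverse complement of the 20 bases of miR-203b-5p is found in miR-203-3p from position 1. Other paired names also had equal means and SDs in both groups. Among them were miR-122-5p with miR-122b-3p (60646 CPM each in control) and miR-1a-3p with miR-1b-5p (299 CPM each in control). Their strands were not compared here. Whether the miR-203-3p and miR-203b-5p rows hold the same reads was not tested. No source used here states whether counting used strand, so the miR-203-3p values are uncertain.

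miR-205-5p, of stratified epithelia, had the largest fold change of the 4 members kept by the edgeR filter, though without IS 1 that of miR-200b-3p was as large (0.70 against 0.68). It stood at 18.5, 51.0 and 18.4 CPM in control and 107, 47.3 and 63.6 CPM in IS (5, 12, 8, 16, 15 and 8 counts). IS 1 and IS 3 were above every control library, while IS 2 was below CTRL 2, so on CPM the groups overlapped by this pair alone. The overlap turned with the scaling. On CPM scaled by the TMM factors of the edgeR test the values were 22.1, 47.0 and 16.3 in control and 128, 49.8 and 51.6 in IS, and all IS values lay above all control values. The unscaled means were 29.3 ± 18.8 and 72.7 ± 31.0 CPM (SD, n = 3 per group). The log2 fold change was 1.41 (SE 1.02, 95% interval -0.84 to 3.66, unadjusted p = 0.194, adjusted p = 0.996, edgeR). It was 0.68 without IS 1 (0.84 with the scaling kept) and 0.81 without CTRL 1 (1.27 with the scaling kept).

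miR-375-3p, the islet miRNA, was detected in patches. It had 0, 59.5 and 2.30 CPM in control and 0, 9.45 and 39.8 CPM in IS (0, 14, 1, 0, 3 and 5 counts). CTRL 2 held 14 of its 23 counts. The means were 20.6 ± 33.7 and 16.4 ± 20.8 CPM (exact two-sided permutation p = 0.9, n = 3 per group). The zeros in CTRL 1 and IS 1 have 95% Wilson upper limits of 14.2 and 25.7 CPM.

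None of the 8 epithelial miRNAs differed detectably between IS and control in these libraries. The edgeR filter kept 4 of the 8 (miR-200a-3p, miR-200b-3p, miR-200c-3p and miR-205-5p), and 0 of these 4 were past the adjusted threshold of 0.05, beside 0 of all 206 tested (0%). The smallest adjusted p of any tested miRNA was the 0.996 of these members, and 0 of the 4 had an unadjusted p under 0.05, against 3 of the 206. DESeq2, which tested 618 miRNAs and all 8 members, also called 0, with 14 miRNAs and 0 members at an unadjusted p under 0.05. On CPM, all 3 values of one group lay above all 3 of the other for 0 of the 8, and for 3 of the 206 tested (1.46%). Only the 4 members kept by the filter are among these 206, so the like count is 0 of 4. Scaled by TMM factors this held for 1 of the 8, miR-205-5p, which is 1 of the 4 kept by the filter, and for 7 of the 206 (3.4%). Scaled by RLE factors it held for miR-205-5p again and for 9 of the 206 (4.37%). All 4 members kept by the filter had a fold change above 0 (median 0.56), as had 109 of all 206 (median 0.022). Of the other 4, DESeq2 gave miR-141-3p -1.95 (SE 2.05), miR-375-3p -0.35 (SE 2.15), miR-203-3p 0.46 (SE 1.34) and miR-429-3p 1.07 (SE 1.44), so the members did not all lie on one side. The wide intervals allow changes of either direction, up to a log2 of 2.13 to 3.66 upward and -0.84 to -1.52 downward.

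**Figure D2:**
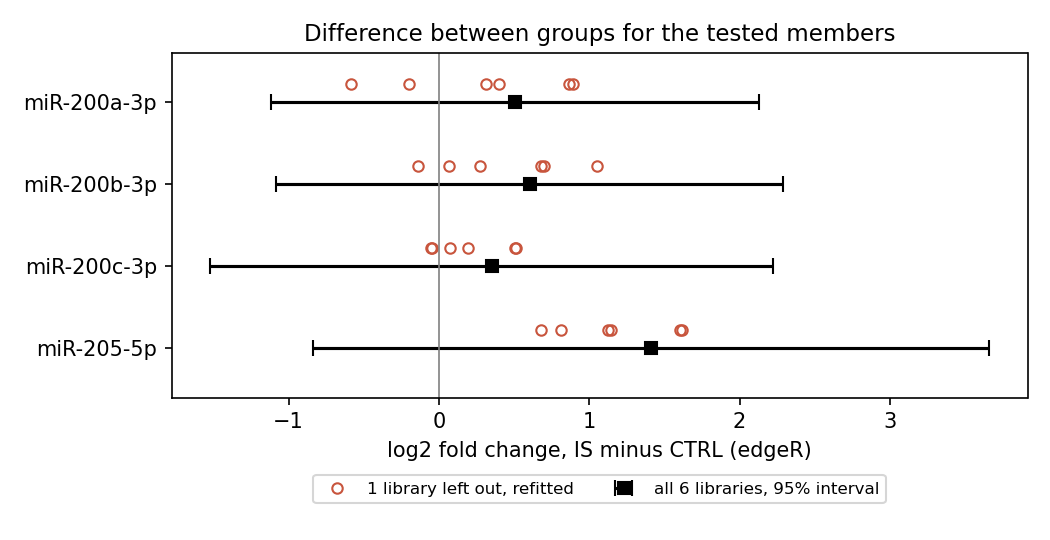
Log2 fold change, IS minus control, of the 4 tested members (edgeR). Squares are fits on all 6 libraries with 95% intervals, and open circles are refits with 1 library left out. All intervals include 0, and only the circles of miR-205-5p all stay above 0 (0.68 to 1.62).

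The order of the 8 levels was clear only at the top. The 7 with a sequence are 22 or 23 bases long, so length differs little between them, but how evenly their ends were ligated in library making was not tested. miR-200a-3p (280.2 ± 205 CPM over all 6 libraries) was above miR-200b-3p (134 ± 84.7 CPM) in 5 of 6 libraries, all but IS 2 (36 against 39 counts). miR-200c-3p (86.2 ± 39.1 CPM) was below miR-200b-3p in 3, equal in 1 and above it in 2. It was above miR-205-5p (51.0 ± 33.0 CPM) in 5 of 6. Below that the order changed from library to library. miR-205-5p exceeded miR-203-3p (34.2 ± 26.1 CPM) in 3 libraries and lay below it in 3, and the same split held for miR-203-3p over miR-429-3p (30.8 ± 28.2 CPM). miR-375-3p (18.5 ± 25.2 CPM) and miR-141-3p (15.6 ± 14.9 CPM) had the lowest means.

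The 2 clusters did not keep a fixed proportion to each other. The chromosome 4 cluster supplied 62.5, 72.5 and 87.6% of the family counts in CTRL 1 to 3 and 90.8, 64.1 and 88.8% in IS 1 to 3. The 95% Wilson intervals were 49.4 to 74.0%, 64.3 to 79.4% and 83.2 to 91.1% in control and 81.3 to 95.7%, 55.5 to 71.9% and 82.4 to 93.1% in IS. The intervals of CTRL 3, IS 1 and IS 3 lay above those of CTRL 1, CTRL 2 and IS 2 without overlap, and each of these sets holds libraries of both groups. The make-up therefore varied by more than counting error between libraries, but not along the labels, with group means of 74.2 ± 12.7 and 81.2 ± 14.9% (SD, n = 3 per group).

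**Figure D3:**
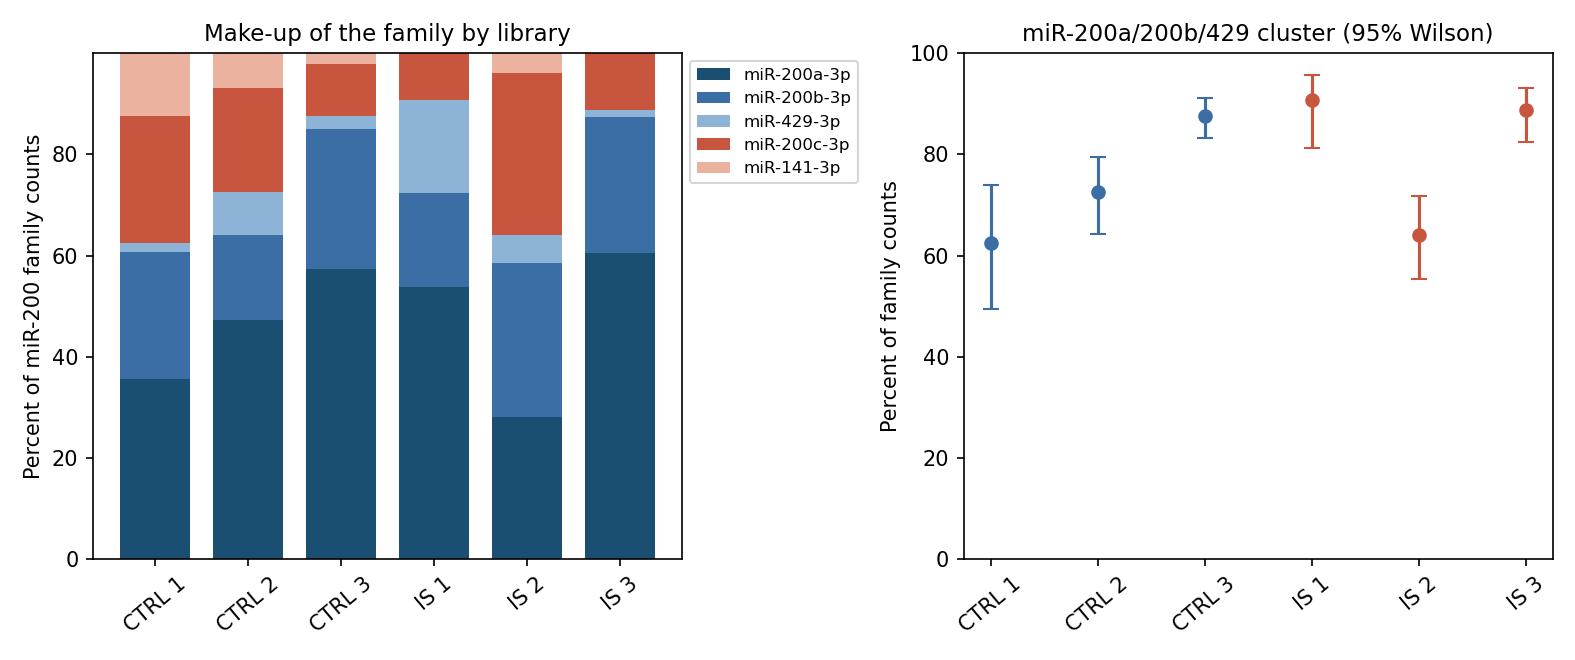
Left, percent of miR-200 family counts by member in each library, with chromosome 4 members in blues and chromosome 6 members in reds. Right, percent from the chromosome 4 cluster with 95% Wilson intervals, control in blue and IS in red. The share runs from 62.5% (CTRL 1) to 90.8% (IS 1).

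Summed by place, the chromosome 4 cluster stood at 129, 404 and 537 CPM in control and 395, 258 and 946 CPM in IS, a 7.31-fold range. The chromosome 6 cluster stood at 77.7, 153 and 75.8 CPM and at 40.2, 145 and 119 CPM, a 3.81-fold range. IS 3 was far ahead for the first cluster, whereas CTRL 2 and IS 2 led the other. Over the 6 libraries the 2 sums had a Pearson r of 0.10 and a Spearman rho of 0.029 on log2(CPM + 1), and leaving out each library in turn gave r from -0.089 to 0.25. These are given as a description, with no test, since they are scores over members.

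**Figure D4:**
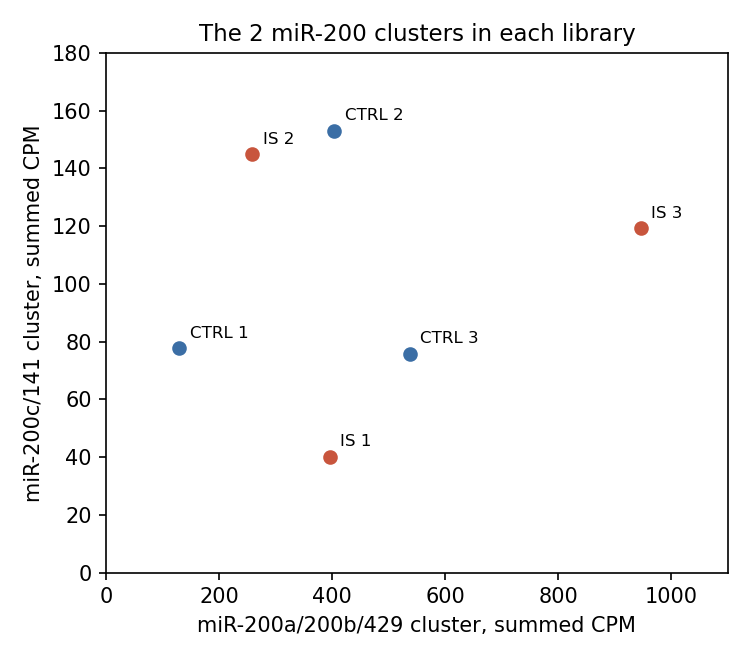
Summed CPM of the chromosome 4 cluster (horizontal) against that of the chromosome 6 cluster (vertical), 1 point per library, control in blue and IS in red. IS 3 lies far to the right at a middling height, and CTRL 2 and IS 2 lie highest with low to middling chromosome 4 sums.

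Pairs of single miRNAs were compared for the 6 members with a count in every library, which gave 15 pairs. After Benjamini-Hochberg adjustment over the 15, none was past 0.05, while 2 reached this level before adjustment by Pearson's r and 0 by Spearman's rho. miR-200a-3p and miR-200b-3p, of 1 cluster, had r = 0.83 (exact permutation p = 0.044, adjusted p = 0.333) and rho = 0.83 (exact permutation p = 0.058). With any 1 library left out r was 0.66 to 0.94. Without both CTRL 1 and IS 3, the lowest and highest libraries, it was 0.17 over the remaining 4, whose range is narrower. miR-429-3p and miR-205-5p, on different chromosomes, had r = 0.80 (exact permutation p = 0.044, adjusted p = 0.333) with rho = 0.54 (exact permutation p = 0.297). With any 1 library left out r was 0.65 to 0.89, and without both CTRL 1 and IS 1 it was 0.33 over the remaining 4.

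Across the clusters r was 0.25 for miR-200a-3p with miR-200c-3p, 0.54 for miR-200b-3p with miR-200c-3p and 0.015 for miR-200c-3p with miR-429-3p (exact permutation p = 0.594, 0.261 and 0.989, and rho 0.26, 0.66 and -0.14 with p = 0.658, 0.175 and 0.803). Nor did miR-429-3p follow its own cluster, with r = 0.38 to miR-200a-3p and 0.089 to miR-200b-3p (exact permutation p = 0.453 and 0.892, and rho 0.029 and -0.14 with p = 1 and 0.803). Several of these rest on counts of 1 to 12 in a library, where counting error is large. For scale, the median r of all 21115 pairs of tested miRNAs was 0.067 and 5.20% of them were at or above the value of miR-200a-3p with miR-200b-3p. The median of the 15 member pairs was 0.12.

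Seeds cut across the clusters, so the pools of reads that share a seed were summed too. The AAUACUG seed (miR-200b-3p, miR-200c-3p and miR-429-3p) stood at 107, 255 and 248 CPM in control and 201, 274 and 422 CPM in IS. The AACACUG seed (miR-200a-3p and miR-141-3p) stood at 99.9, 302 and 365 CPM in control and 235, 129 and 644 CPM in IS. The AAUACUG pool was the larger in CTRL 1 and IS 2 and the smaller in the other libraries, and for each pool the groups overlapped.

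The opposite arm of the miR-200a hairpin was compared with its 3p arm. miR-200a-5p had 0, 9 and 4 counts in control and 0, 2 and 0 in IS, against 387 counts of miR-200a-3p in all, so that 96.3% of the counts of the 2 arms were from the 3p arm. The 3p share was lowest in CTRL 2, at 87.3% (95% Wilson interval 77.6 to 93.2%), and 100% in CTRL 1, IS 1 and IS 3, where the lower bounds were 83.9, 90.1 and 95.5%. The opposite arms of the other members, and miR-203b-3p, were not analysed here.

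The miRNAs whose level followed the miR-200 family sum most closely over the 6 libraries were read from 202 tested miRNAs. The sum was 207, 557 and 613 CPM in control and 436, 403 and 1066 CPM in IS. miR-532-5p was the most alike, at 181, 672 and 590.2 CPM and 456, 410 and 1082 CPM (r = 0.99). It was followed by miR-127-5p (r = 0.98), miR-194-5p (r = 0.94), miR-340-5p (r = 0.94) and miR-129-5p (r = 0.90), the last with the same counts as miR-129b-3p. Values under the floor of 3 counts enter 2 of these r. They are miR-127-5p in CTRL 1 (0 CPM) and IS 1 (13.4 CPM), and miR-129-5p in CTRL 1 (3.70 CPM). That floor was 11.1 CPM in CTRL 1 and 20.1 CPM in IS 1. miR-194-5p, a miRNA of gut and liver epithelium, stood at 62.9, 119 and 119 CPM in control and 87.1, 120 and 191 CPM in IS. The summed liver and gut list, which miR-122-5p led, had r = -0.66 with the family sum, and miR-192-5p of that list had r = 0.88. The 5 most alike were picked for their r, so this is a description with no p, and all values of a library share its total.

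Other epithelial miRNAs were 1 above and 2 below 0. Of the 8 in that list, 7 had a row, 3 were tested and 0 passed (median log2 fold change -0.45). miR-182-5p and miR-183-5p, which come from 1 cluster expressed in sensory epithelia, had log2 fold changes of -0.71 (SE 0.99) and -0.45 (SE 0.96), and miR-184-3p, known from cornea, had 0.02 (SE 0.64). Of the liver and gut list 3 were tested and 0 passed, with miR-192-5p at 0.04 (SE 0.49), miR-194-5p at 0.40 (SE 0.73) and miR-122-5p at -0.06 (SE 0.79). miR-7a-5p, known from islets like miR-375, was the only 1 of the 4 in the pancreas list with a row. It was far more abundant than miR-375-3p, with means of 4794 ± 769.8 CPM (control) and 6038 ± 1208 CPM (IS). Its log2 fold change was 0.36 (SE 0.43). Of the 5 fibroblast and smooth muscle miRNAs 4 were tested, 2 above and 2 below 0, with miR-143-3p at -0.10 (SE 0.46) and miR-199a-3p at -0.63 (SE 0.59). Of the leukocyte list all 7 were tested and above 0 with 0 past the threshold (median 0.29), and so were all 4 of the red cell list (median 0.37). The 4 epithelial members tested therefore stood beside other lists that were also above 0, and the part of these cells in the result was not tested.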

How the data were processed

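Vesicle RNA was purified with the exoRNeasy Maxi kit and libraries were built with the NEBNext small RNA kit, per the labels. The submitters' processing notes name CASAVA 1.8 and Bowtie. No source used here gives the genome build, miRBase release, filters or strand setting. The authors deposited read counts and TPM for 620 miRNAs in 6 libraries. The deposited TPM equals counts per 1000000 (CPM) to within 4.8e-10. Members and lists were chosen with earlier results of these data known.

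Counts were tested with edgeR's quasi-likelihood F-test (TMM, filterByExpr with minimum count 10 and total 15, group only, Benjamini-Hochberg over 206 tested miRNAs, threshold 0.05), tested on simulated data. SE was the fold change over the square root of F. Members that the filter left out were compared by exact permutation tests. Pairs used log2(CPM + 1). Named were the 8 members, their listed opposite arms, up to 2 abundant tested members of each list, and the 5 miRNAs most alike. miR-183-5p and the names in the closing observations were chosen after their values were seen. Alternatives were RLE factors, library totals, other filters, DESeq2, a replicate block, leaving each library out, limma on log2(TPM + 1) or log2(TPM + 0.5), 3 counts for detection, thinning, other scales for r and totals without 12 repeated rows. Leaving out a library with the scaling kept, and group overlap on TMM- or RLE-scaled CPM, were added after the data were seen. No 2 libraries agreed within sampling noise (lowest chi-square per degree of freedom 29.8). Software was DESeq2 1.42.0, limma 3.58.1 and edgeR 4.0.16 under R 4.3.3, and scipy 1.17.1 under Python 3.11.15.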

Additional observations from a re-analysis of the deposited data

How the results depend on the processing

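The number of members past the adjusted threshold was 0 with all 20 alternatives, as was that of all miRNAs. The sign of a fold change turned in 7 of the 80 alternative values of the 4 tested members, each with a library left out. With refitted scaling, miR-200a-3p ran from -0.58 to 0.89 (-0.20 without CTRL 1), miR-200b-3p from -0.14 to 1.05, and miR-200c-3p from -0.051 to 0.51 (-0.047 without CTRL 1). With the scaling kept, miR-200a-3p was -0.12 without IS 3 and miR-200c-3p -0.025 without IS 2. Refitting also moved the overall median fold change (0.022 with 6 libraries, -0.27 to 0.050 with 5), and the cause of the turns was not tested. miR-205-5p stayed above 0, from 0.68 to 1.96. Members whose groups did not overlap numbered 0 on CPM and 1 (miR-205-5p) on TMM-scaled or RLE-scaled CPM. Under the replicate block the 4 values were 0.47, 0.61, 0.29 and 1.39, and the block changed no call. Same-numbered libraries deviated from their group means with r = 0.31, -0.33 and -0.054, so the numbers were not taken to pair them. The highest r of each library fell in the pairs nearest by chi-square. Both measures come from the same counts, so this is no separate evidence of pairs. Centring on the group mean also keeps the r of a library with the other group from all having 1 sign. The pairs were CTRL 1 with IS 1 (0.31), CTRL 2 with IS 3 (0.25) and CTRL 3 with IS 2 (0.53). The main test fits group only, so variation shared within these pairs stays in its error. No fit used these pairs, and their part in the results was not tested. The summed CPM of the 8 was 220.1 higher in IS than in control (541 ± 250.5 against 761 ± 361), 11.9 to 329 with a library left out. Of 135 alternative values of r for the 15 pairs, 28 had the other sign, and 0 pairs passed with log2(CPM + 10), TMM-scaled CPM or values centred on the group mean. Depth limits miR-141-3p, miR-429-3p, miR-203-3p and miR-375-3p, with 23 to 62 counts in all.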

Other observations

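Some epithelial miRNAs outside the 8 were read in a single control library. miR-96-5p, from the cluster of miR-182 and miR-183, had 59.7 CPM in CTRL 3 (26 counts) and 0 in the other 5 libraries. miR-34c-5p, known from ciliated epithelia, had 32.1 CPM in CTRL 3 (14 counts) and 0 elsewhere. CTRL 3 also had the highest miR-182-5p (592 CPM, against 14.8 to 262 in the other libraries) and miR-183-5p (448 CPM, against 22.2 to 318). miR-200a-3p was highest in IS 3. Over the 6 libraries miR-182-5p still had r = 0.85 with the miR-200 family sum, and miR-183-5p had r = 0.90. The sum of the other epithelial list had r = 0.54. These r values are a description with no p. CTRL 3 is the deepest library. Of all 620 rows it had a count in 513, against 276 to 441 in the other libraries, so many more rows of any kind were read there. The part of depth in these values was not tested.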
